A study of Arabidopsis thaliana with 4 samples.

Results

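TRIPTYCHON (TRY), SIAMESE (SIM), MYC1 and GLABROUS INFLORESCENCE STEMS (GIS) are regulators of trichome fate in Arabidopsis thaliana, each read by 1 probe set on an expression array. They were chosen by name and probe set, TRY (AT5G53200) as 248246_at, SIM (AT5G04470) as 250844_at, MYC1 (AT4G00480) as 255675_at and GIS (AT3G58070) as 251586_at. They are 4 of the 22746 probe sets left after controls. Expression was compared in 4 seedling samples, with 1 deposited array column per genotype: gl1, ttg1 and gl3 egl3, which make no trichomes, and wild type. The age given is 20 days for ttg1, gl3 egl3 and wild type, with none given for gl1. Green tissue is stated for gl1, ttg1 and wild type, and no such statement is made for gl3 egl3. Landsberg erecta (Ler) is named beside ttg1 and gl3 egl3 and not beside gl1 or wild type, and the mutant alleles are not stated. The double mutant is gl3egl3 in its sample title, which is followed here, and gl3egl1 in the study's design text. All plants grew at 22 °C under 16 h days and 8 h nights, and 25 ng of total RNA entered the amplification.

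Leaf trichomes arise when a complex of the R2R3 MYB protein GL1, the bHLH proteins GL3 or EGL3 and the WD40 protein TTG1 activates its targets in an epidermal cell. Single-repeat MYB proteins such as TRY are made in the young trichome, move to neighbouring cells and compete with GL1 for the bHLH partner, which keeps those neighbours from the same fate. SIM is an inhibitor of cyclin-dependent kinases that ends mitosis as the trichome cell enters endoreduplication. MYC1 is a bHLH protein of the same subgroup as GL3 and promotes trichome formation, and GIS is a C2H2 zinc-finger protein that acts upstream of the complex in response to gibberellin. No probe set is named here for GL1, GL3, EGL3 or TTG1, so the genotypes could not be checked against the mutated genes.

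The arrays differed as wholes, which bears on every value below. As deposited, the median over all probe sets was 6.33 to 6.40 (log2) in the 3 mutants and 5.93 in wild type, and the SD was 2.01 in gl3 egl3 against 2.34 to 2.41 in the other 3 arrays. Values were therefore quantile normalized between the arrays. Deposited differences are added in many but not all places where a direction or a 2-fold call turned, so an unmarked direction may also turn with the scaling. Every deposited wild-type value was a multiple of 0.005, while at most 0.0659% of the values of any mutant fell on the 0.005 steps. The labels do not say if the wild-type values average several arrays, and they are treated as those of 1 array. RCA, the Rubisco activase gene of green tissue, had a signal of 12.2 to 12.3 in the 4 arrays. EXPA7, a root hair expansin gene, was at 3.39 in gl3 egl3 and 3.26 to 3.35 in the other 3 arrays, and PYK10, a beta-glucosidase gene abundant in roots, was at 10.9 in gl3 egl3 and 11.2 to 11.3 in the others. Against wild type, gl3 egl3 thus differed by 0.04 for EXPA7 and -0.27 for PYK10 (1.28 and -0.08 as deposited, where low values ran higher in this array).

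TRY, the inhibitor that moves between cells, was high in the double mutant alone. Its signal was 4.84 (log2) in gl1 seedlings, 5.56 in ttg1 and 8.24 in gl3 egl3, against 5.44 in wild type. The gl3 egl3 value lay above the other 3, which fell within 0.72 of one another. Relative to wild type the gl1 difference was -0.60, the ttg1 difference 0.12 and the gl3 egl3 difference 2.81, and gl3 egl3 was 6.43-fold above ttg1, the next highest array. In these whole samples, a change in the number of cells that express a gene and a change in its RNA per cell cannot be told apart.

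**Figure D1:**
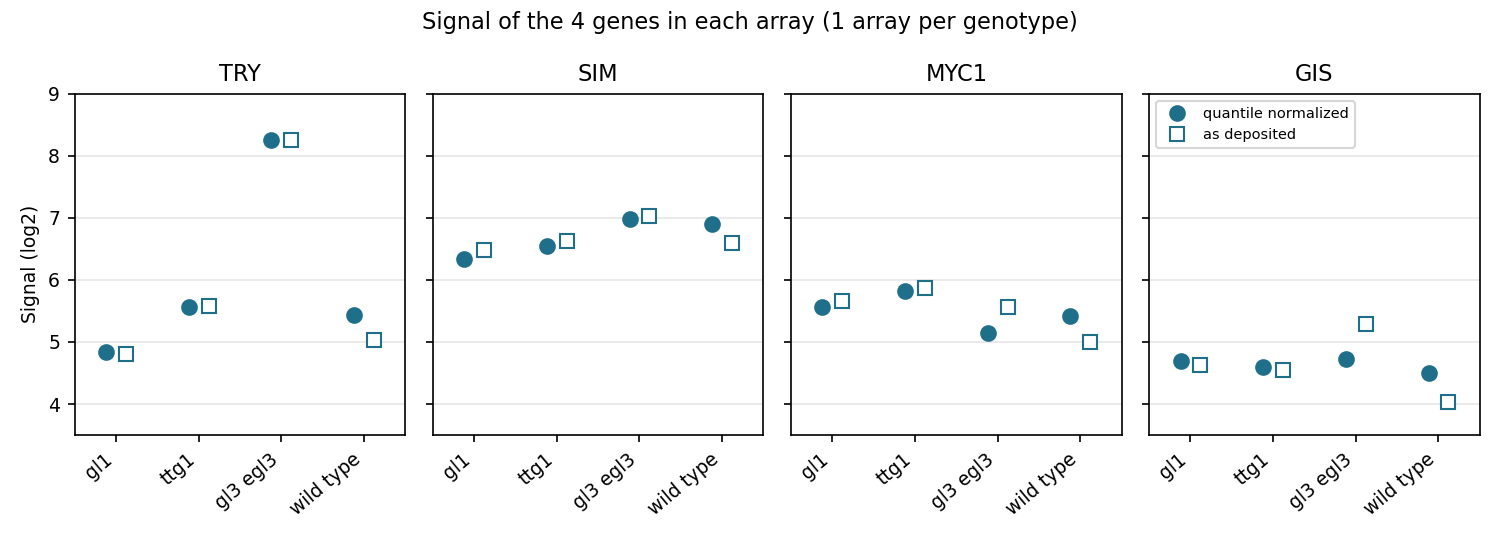
Signal (log2) of TRY, SIM, MYC1 and GIS in the gl1, ttg1, gl3 egl3 and wild-type arrays, 1 point per array, as filled circles after quantile normalization and open squares as deposited. TRY is at 8.24 in gl3 egl3 and at most 5.56 elsewhere, while the other 3 genes span at most 0.69 after normalization.

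The order of the TRY values did not rest on the scaling. In the deposited values TRY was at 4.80 in gl1 seedlings, 5.57 in ttg1 and 8.25 in gl3 egl3, against 5.03 in wild type, so that gl3 egl3 exceeded wild type by 3.22 (log2, 9.34-fold) and ttg1 by 2.68. Within each array TRY stood at percentile 33.1 of all probe sets in gl1 seedlings, 41.3 in ttg1 and 77.2 in gl3 egl3, against 39.9 in wild type. Quantile normalization keeps these ranks, so the percentiles restate the normalized order and are no separate check. Its 4-array range of 3.40 was matched or exceeded by 33 of the 22746 probe sets (0.145%), where the median range was 0.55.

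With gl3 egl3 set against the other 3 arrays, TRY was higher by 2.97 ± 0.34 (log2, SE of limma, 95% interval 2.11 to 3.82). limma's moderated test gave an adjusted p of 0.030 over all 22746 probe sets. Over the 12601 probe sets above a level filter it was 0.045, and that value has the limit that TRY passed the filter through gl3 egl3 alone, a passage that in itself requires a difference between arrays. The spread in this fit is that between gl1, ttg1 and wild type, and the lone gl3 egl3 array is assumed to vary as they do. The filtered fit called 77 probe sets higher in gl3 egl3, or 0.611% of those tested, and 0.103% lower, and TRY was the 15th of these by size and the 73rd of the 90 called in either direction by p. The SE and interval given for the 2.97 are those of the filtered fit. Across 8 other settings, the unfiltered fit among them, the difference stayed between 2.75 and 3.12. The call was kept in 3 of them, and the unfiltered fit given above is 1 of these. All settings but that fit used the level filter, which TRY passed through gl3 egl3 alone, so their calls carry the same limit. It was lost after cyclic loess (adjusted p = 0.13), after centring on the median (0.069), with an intensity trend (0.095), without the gl1 array (0.17) and without the wild-type array (0.19).

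**Figure D2:**
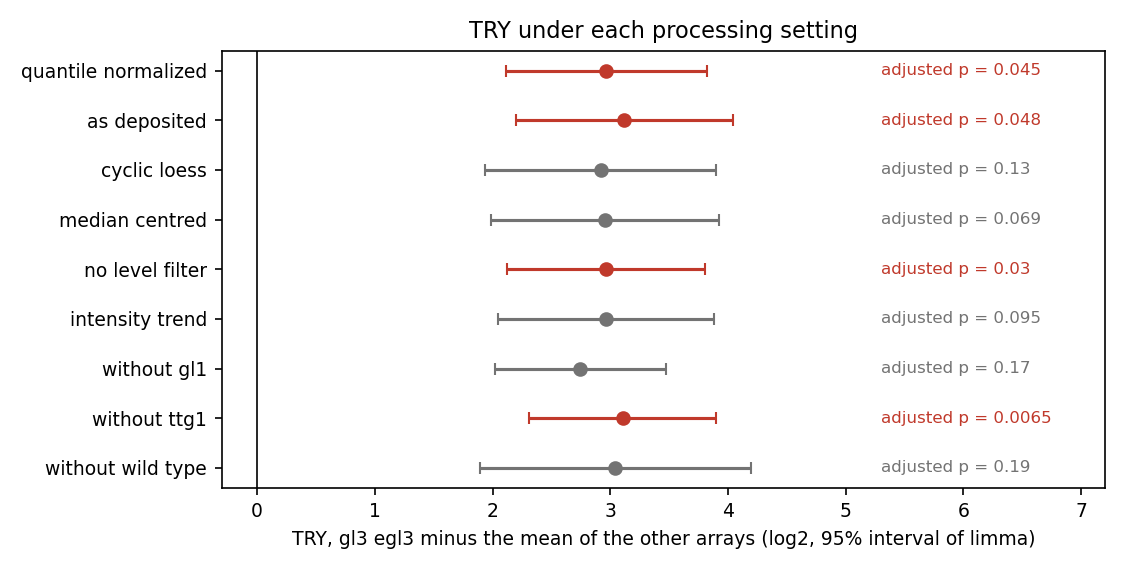
TRY in gl3 egl3 minus the mean of the other arrays (log2) under each processing setting, with 95% intervals of limma and adjusted p, red where the adjusted p is under 0.05. All differences lie between 2.75 and 3.12. Every setting but the one without a level filter used a filter that TRY passed through gl3 egl3 alone, so their adjusted p values are no separate support.

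The 2.97 difference stood in a group of probe sets that are high in this array. The level filter kept probe sets whose highest value reached 6.26, the median of all values. Like TRY, 72 of the 77 probe sets called higher passed it through gl3 egl3 alone, as did 4.03% of all tested probe sets. Without the filter, 2.33% of all probe sets were called higher and 0.796% lower. Among those tested, 141 were at least 2 (log2) higher in gl3 egl3 and 48 at least that much lower. Of the 141, 123 (87.2%) passed the filter through gl3 egl3 alone. A high gl3 egl3 value was their condition of entry, so the excess over the 48 is no separate result.

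**Figure D3:**
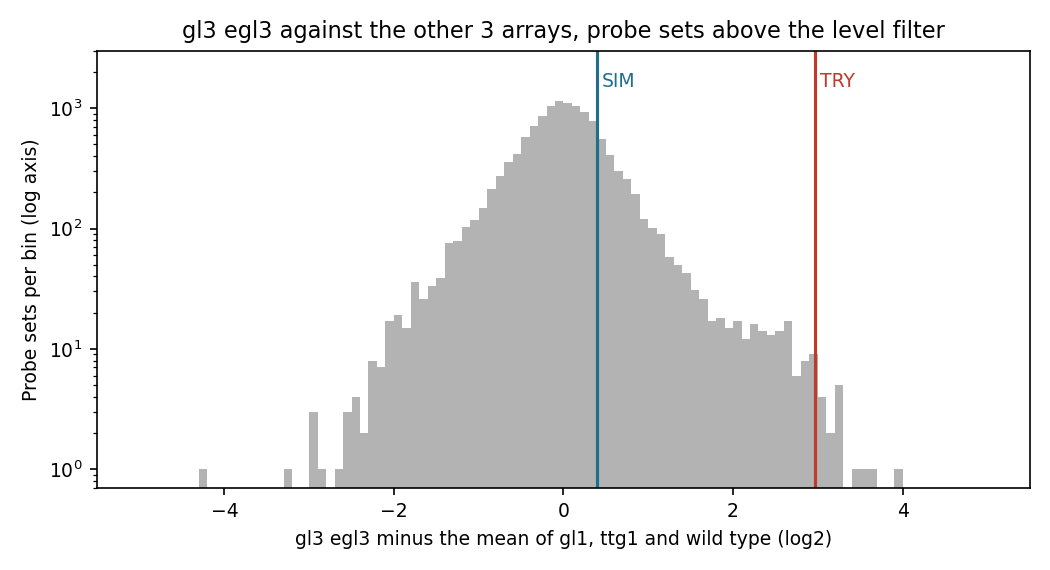
Number of probe sets (log axis) by the difference of gl3 egl3 from the mean of gl1, ttg1 and wild type (log2, bins of equal width), for the 12601 probe sets above the level filter. SIM at 0.40 lies in the body of the distribution, and TRY at 2.97 lies in the right-hand tail. At 2 or more from 0, 141 probe sets lie on the right and 48 on the left. Of the 141, 123 passed the filter through gl3 egl3 alone.

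Some array quality values also stood apart in gl3 egl3. As deposited, 27 control probe sets for bacterial transcripts had a median of 4.11 in gl3 egl3 and 2.94 to 3.21 in the other 3 arrays. The 3' minus 5' difference of the actin control was 4.23 in gl3 egl3 and 3.56 to 3.74 elsewhere, and that of ubiquitin was 2.86 against 2.15 to 2.56. For GAPDH it was 1.47 in gl3 egl3, near the 1.46 of wild type, and 1.05 in gl1 and 1.14 in ttg1. TRY exceeded the median of the bacterial controls by 4.14 in gl3 egl3, against 1.60 in gl1, 2.48 in ttg1 and 2.09 in wild type, so its distance from these controls was also widest in gl3 egl3. Above the highest of these controls TRY stood by only 0.07 in gl1 and 0.715 in wild type, and by 1.15 in ttg1. The size of its difference thus rests on low signals in those arrays. The part of the 3' bias, of the Ler accession and of the tissue harvested in the TRY difference was not tested.

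The other fits did not call TRY. With the 3 mutants set against wild type the difference was 0.78 ± 1.39 (SE, limma adjusted p = 0.91), in a fit that called 0% of 12601 probe sets with 300 lower and 343 higher before adjustment, and leaving out gl3 egl3 it was -0.24. For ttg1 and gl3 egl3 set against gl1 and wild type, the pair that share the Ler label, it was 1.76 ± 0.82 (limma adjusted p = 0.60), with 0.381% of probe sets called lower and 0.0397% higher. That fit has gl3 egl3 and ttg1 on the same side although their TRY values differed by 2.69. The difference of gl1 from the other 3 arrays was -1.57 ± 1.16 and that of ttg1 -0.62 ± 1.35, at limma adjusted p of 1.0 each, and 0% of probe sets were called in either fit. Both sizes rest on the gl3 egl3 array, since without it they were -0.66 for gl1 and 0.42 for ttg1. Before adjustment, limma put 76 lower and 55 higher probe sets past 0.05 for gl1 and 96 lower and 51 higher for ttg1, and TRY was among none of them.

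TRY lies on chromosome 5 between SWEET3, a sugar transporter gene, and SPCH, which starts the stomatal lineage, with no annotated gene between TRY and either of them. SPCH was at 4.63 in gl1 seedlings, 5.04 in ttg1 and 4.21 in gl3 egl3, against 4.57 in wild type, and differed from wild type by -0.36 in gl3 egl3 (0.82 as deposited, so the direction turns with the scaling). SWEET3 was at 3.86 in gl1 seedlings, 3.52 in ttg1 and 3.82 in gl3 egl3, against 3.38 in wild type, a difference of 0.44 in gl3 egl3 (1.65 as deposited). Neither gene passed the level filter. After normalization none of the 10 nearest named genes, 5 on each side, differed 2-fold from wild type in any mutant, and in gl3 egl3 they ran from -0.94 to 0.88. As deposited, where low values ran higher in this array, 4 of the 10 were past 2-fold in gl3 egl3, 1 in ttg1 and 0 in gl1, with gl3 egl3 between -0.24 and 1.94, below the 3.22 of TRY. Among all probe sets, 12.2% differed 2-fold in gl3 egl3 after normalization, so the count of 0 sets these 10 genes little apart. No such share was worked out for the deposited values, so the deposited counts cannot be set against all probe sets.

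**Figure D4:**
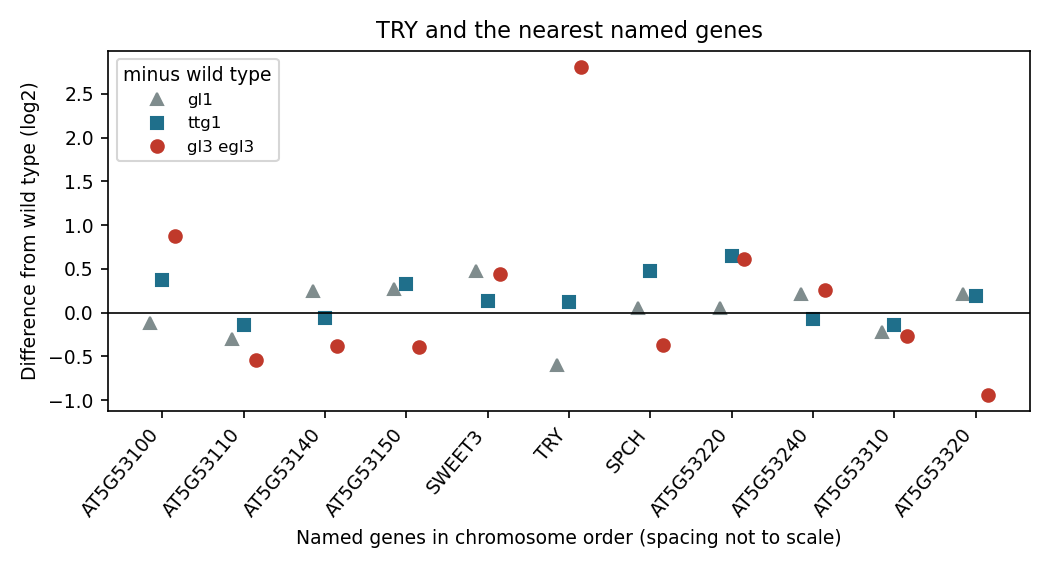
Difference from wild type (log2, quantile normalized) in gl1 (triangles), ttg1 (squares) and gl3 egl3 (circles) for TRY and the 5 nearest named genes on each side, in chromosome order. In gl3 egl3 TRY is at 2.81 and its neighbours lie between -0.94 and 0.88.

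SIM, the kinase inhibitor of the endoreduplication switch, differed little between genotypes. Its signal was 6.33 in gl1 seedlings, 6.54 in ttg1 and 6.98 in gl3 egl3, against 6.89 in wild type. The gl1 and ttg1 values lay below wild type by 0.56 and 0.35 and the gl3 egl3 value 0.09 above it. In the deposited values the gl1 difference was -0.12, that of ttg1 0.02 and that of gl3 egl3 0.43, so the ttg1 direction depends on the scaling, and after median centring gl3 egl3 was -0.02 from wild type. The range of 0.65 over 4 arrays was reached by 39.4% of all probe sets.

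No fit called SIM. The mean of the 3 mutants differed from wild type by -0.28 ± 0.33 (SE, limma adjusted p = 0.89, and 0.11 as deposited), with a 95% interval of -1.15 to 0.60, which does not exclude a 2-fold decrease. Set against the other 3 arrays, gl1 differed by -0.48 ± 0.32, ttg1 by -0.20 ± 0.37 and gl3 egl3 by 0.40 ± 0.28 (limma adjusted p of 1.0, 1.0 and 0.49). The interval for gl3 egl3, -0.32 to 1.11, lies wholly below that of TRY. Both come from the filtered fit, which TRY entered through gl3 egl3 alone, so their separation is not used as support.

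MYC1, the bHLH relative of GL3, was highest in ttg1 and lowest in gl3 egl3 after normalization. Its signal was 5.56 in gl1 seedlings, 5.83 in ttg1 and 5.14 in gl3 egl3, against 5.42 in wild type. From wild type it differed by 0.15 in gl1, by 0.41 in ttg1 and by -0.28 in gl3 egl3. As deposited they were 0.65, 0.86 and 0.56 in the same order of mutants, so the direction in gl3 egl3 turns with the scaling (-0.07 after cyclic loess and 0.10 after median centring). MYC1 did not pass the level filter. Without the filter gl3 egl3 differed from the other 3 arrays by -0.47 ± 0.22 (SE, limma adjusted p = 0.29) and ttg1 by 0.46 ± 0.28 (adjusted p = 1.0).

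GIS, the zinc-finger gene, had the narrowest range of the 4 after quantile normalization and cyclic loess, but a wider one than SIM and MYC1 as deposited (1.26) and after median centring (0.80). Its signal was 4.69 in gl1 seedlings, 4.60 in ttg1 and 4.73 in gl3 egl3, against 4.50 in wild type. All 4 arrays lay within 0.23 of one another, a range that 88.3% of probe sets reached. The 3 mutants were above wild type by 0.20, 0.10 and 0.23, or a mean of 0.17 ± 0.07 (SD, n = 3 mutants), an SD that does not hold the error of the shared wild-type value. The mutant values were above wild type under each of the 4 scalings, and in the deposited values gl3 egl3 exceeded it by 1.26, past the 2-fold rule.

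The GIS signal was too low to carry more. As deposited it was 0.11 below the highest bacterial control probe set in gl1 and 0.29 below it in wild type, and above it by 0.12 in ttg1 and 0.26 in gl3 egl3. TRY, SIM and MYC1 were above that control in all 4 arrays, TRY by 0.07 in gl1 and by 3.23 in gl3 egl3. Probe sets differ in affinity, so this describes how near to background a signal lies and is no detection call. GIS did not pass the level filter, and without it limma gave 0.17 ± 0.21 (SE) for the 3 mutants against wild type, with an interval of -0.38 to 0.73 and an adjusted p of 0.99.

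Read together by the 2-fold rule after normalization, 1 of the 4 genes was past it in gl3 egl3 (TRY, higher), where 6.31% of all 22746 probe sets were higher and 5.9% lower. As deposited GIS was also past this rule, with no share of all probe sets worked out for those values. None was past it in gl1, where 1.78% of probe sets differed in either direction, or in ttg1, where 3.68% did. The 4 genes had a median difference of -0.21 in gl1, of 0.11 in ttg1 and of 0.16 in gl3 egl3, beside medians over all probe sets of 0.00, 0.01 and -0.02. TRY and SIM both had their lowest signal in gl1 and their highest in gl3 egl3, while MYC1 was lowest in gl3 egl3. These orders depend on the scaling, since MYC1 was lowest in wild type as deposited and after median centring, which also put SIM highest in wild type. The 3 differences of a gene share 1 wild-type column, and 1 deposited column per genotype gives no spread by which to separate neighbouring values in these orders.

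Other genes of the pathway were few. Of 54 genes in lists of single-repeat MYB inhibitors, the activator complex and its targets, relatives of GIS, kinase inhibitors, the cell cycle and further inputs to trichome fate, 5 are named here. None of the 7 single-repeat MYB and related inhibitor genes listed beside TRY (CPC, ETC1, ETC2, CPL3, TCL1, TCL2 and MYBL2) is named, so whether they share its profile is not analysed here. In gl1 and ttg1 none of the 5 was 2-fold from wild type, and in gl3 egl3 2 were higher and none lower, beside 1.78% of all probe sets past 2-fold in gl1, 3.68% in ttg1, and 6.31% higher and 5.9% lower in gl3 egl3.

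Both of these came from the list of cyclin-dependent kinase inhibitors, to which SIM also belongs. AT1G10690 was at 6.24 in gl1 seedlings, 6.22 in ttg1 and 7.37 in gl3 egl3, against 5.98 in wild type. AT5G02420 was at 5.78 in gl1 seedlings, 6.06 in ttg1 and 7.25 in gl3 egl3, against 5.99 in wild type. As with TRY, gl3 egl3 stood above the other arrays at both loci, while AT1G08180, the remaining named locus of that list, was at 4.69 in gl3 egl3 and 5.08 to 5.31 elsewhere. For AT1G08180 the direction turns with the scaling, at -0.63 from wild type in gl3 egl3 after normalization and 0.36 as deposited. Against the other 3 arrays the gl3 egl3 difference was 1.22 ± 0.22 for AT1G10690 and 1.31 ± 0.22 for AT5G02420 (SE, limma adjusted p of 0.087 and 0.079), so neither was called. Both passed the level filter through gl3 egl3 alone. AT1G68360, on the list of GIS relatives, differed by -0.24 in gl1, by -0.94 in ttg1 and by -0.59 in gl3 egl3 from wild type (0.12, -0.63 and 0.60 as deposited), below the level filter. SPY, a repressor of gibberellin signalling, differed by 0.42, 0.33 and 0.06 in the same order (0.92, 0.75 and 0.51 as deposited).

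**Figure D5:**
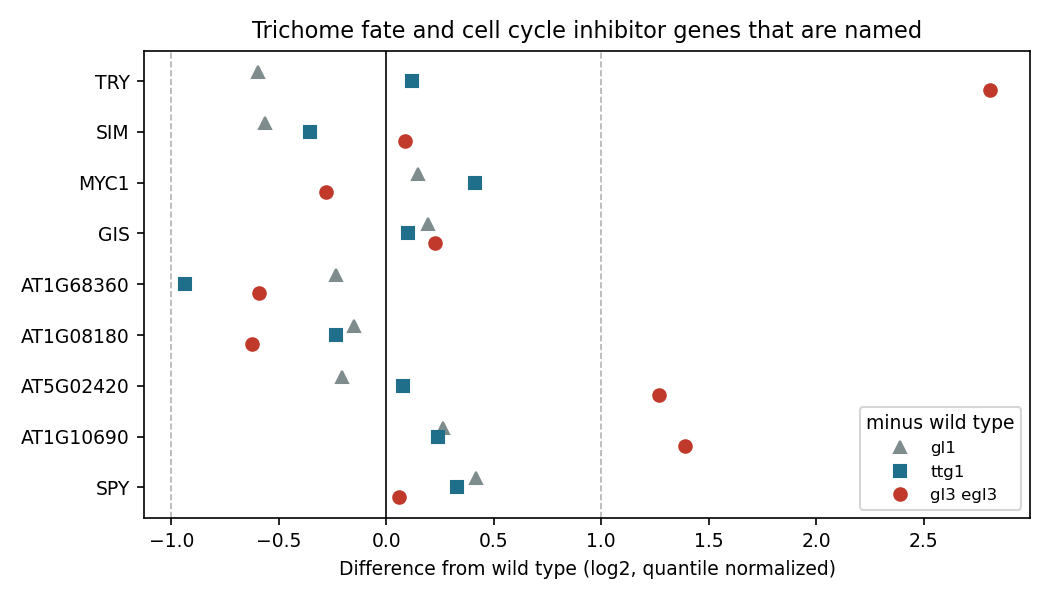
Difference from wild type (log2, quantile normalized) of the 4 genes and the 5 other named genes of the pathway lists in gl1 (triangles), ttg1 (squares) and gl3 egl3 (circles), with dashed lines at 2-fold. TRY at 2.81, AT1G10690 at 1.39 and AT5G02420 at 1.27 are past 2-fold in gl3 egl3, and no point is past it in gl1 or ttg1.

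Markers of the stomatal lineage, another epidermal fate, showed no value in gl3 egl3 comparable to that of TRY. FMA (FAMA), which acts at the last step of guard cell formation, was at 6.87 in gl1 seedlings, 6.58 in ttg1 and 6.77 in gl3 egl3, against 7.46 in wild type. Its gl3 egl3 value was among those of the other mutants. MUTE, which acts between SPCH and FAMA, was at 3.75 in gl1 seedlings, 4.08 in ttg1 and 3.78 in gl3 egl3, against 3.73 in wild type, below the level filter. After normalization 0 of the 3 stomatal genes, SPCH included, were 2-fold from wild type in any mutant, a count that the shares of all probe sets given above do not set apart. As deposited MUTE was 1.29 above wild type in gl3 egl3.

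Profiles were also compared over the 4 arrays among 6770 named probe sets above the level filter, by the root mean square distance after each was centred on its mean. The profile nearest to TRY was that of AT1G50160, at a distance of 0.06, with 3.84 in gl1 seedlings, 4.42 in ttg1 and 7.19 in gl3 egl3, against 4.29 in wild type. AT3G24640, AT3G55180, AT4G23970 and AT3G53770 followed at 0.06, 0.10, 0.15 and 0.17, each higher in gl3 egl3 than in wild type by 2.78 to 3.20. All 5 are annotated as protein-coding genes and lie on chromosomes other than that of TRY. Like TRY, all 5 were below the filter level of 6.26 in gl1, ttg1 and wild type, and entered this pool through gl3 egl3 alone. For genes that low in those arrays, a high gl3 egl3 value was the condition of entry, so the likeness is no separate result. Nearest to SIM were AT2G43540, AT5G02540 and AT1G47530, at distances of 0.01 to 0.02. AT4G01330, AT5G50780 and AT1G73710 were nearest to MYC1 at 0.02 each, and AT2G38610, AT1G16020 and AT5G27400 nearest to GIS at 0.02 each. With 4 points per profile, and flat profiles common, such likeness describes these arrays only.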

How the data were processed

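The data are 1 table of log2 values per probe set for 4 arrays, and the deposited log2 values were made with RMA per the submitters' processing notes. Its version and settings, the array scaling, the genome build and whether a column pools arrays have no entry in the labels, so no coordinates are printed. After 64 control probe sets were removed, values were quantile normalized with limma 3.58.1 (R 4.3.3), and limma's lmFit and eBayes were fitted to the 12601 probe sets above the level filter, with Benjamini-Hochberg adjustment at 0.05. Fits set the mutants against wild type, each mutant against the other 3 arrays, and ttg1 with gl3 egl3 against gl1 with wild type. Separate plantings are not recorded, so a p-value here reflects the spread among these arrays, which may be technical, and the number of arrays limits precision.

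Names come from the platform annotation, updated to RefSeq (TAIR10.1): 13513 probe sets name 1 gene, 503 several, and 13436 matched the reference. MYC1 is listed there as ATMYC1. The genes and lists were chosen with earlier results of these data known. Named are the 4 genes in every array, named list genes, nearest named neighbours (1 on each side, widened to 5 after values were seen) and the nearest profiles, 5 for TRY and 3 for the others. Where a locus has several probe sets, the brightest on average was taken. Alternatives were the deposited values, cyclic loess, median centring, no level filter, an intensity trend, a 3-fold rule and leaving out each array.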

Additional observations from a re-analysis of the deposited data

How the results depend on the processing

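Of 48 recomputed differences of the 4 genes from wild type (3 scalings and a 3-fold rule), 47 stayed on their side of the rule, and GIS in gl3 egl3 passed 2-fold in the deposited values only (1.26). The 3-fold rule reuses the main values, so no difference under 2-fold could change there. Staying on a side of the rule is also not keeping a direction, which turned under some scalings for SIM in ttg1 and for SIM and MYC1 in gl3 egl3. For gl3 egl3 against the other 3 arrays, TRY missed the threshold after cyclic loess (2.92), median centring (2.96) and with an intensity trend (2.97), and ranged from 2.75 to 3.10 with 1 array left out. That fit called 90 probe sets, 36 as deposited, 27 after median centring, 0 after cyclic loess (949 lower and 1147 higher at an unadjusted limma p under 0.05), 0 with a trend (1159 and 1249), 710 without the filter, and 0 to 707 with 1 array left out. Fits of ttg1 with gl3 egl3 against gl1 with wild type called 53, then 136 as deposited, 104 after cyclic loess, 137 after median centring, 107 with a trend, 0 without the filter (1149 and 743 at an unadjusted limma p under 0.05) and 0 to 707 with 1 array left out. TRY there ranged from 0.42 without gl3 egl3 to 3.10 without ttg1. Without ttg1 this fit is the same as that of gl3 egl3 against the others. Without gl3 egl3 it is the same as that of ttg1 against the others. The values and counts of these fits are thus not separate results. With 1 array left out, TRY ranged from -0.24 to 1.46 for the 3 mutants against wild type and from -1.28 to 0.42 for ttg1 against the others, a fit that then called 0 to 49 probe sets, and the negative value of the former and the positive one of the latter came without gl3 egl3. SIM turned to 0.11 for the mutants against wild type as deposited, and ranged from -0.13 to 0.43 for ttg1 and gl3 egl3 with 1 array left out, at -0.07 without gl3 egl3. The causes of these changes were not tested. No paired analysis was possible because each genotype has 1 deposited column. Low signal limits GIS and MYC1, and it limits TRY in gl1 and wild type.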
